A study of Mus musculus with 15 samples.

Results

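The circadian clock genes of the mouse kidney were followed in single microdissected proximal tubules and in whole kidney. The group comprised 10 genes, taken by symbol from the deposited table of 47069 genes: the activators Arntl and Npas2, the repressors Per1, Per2 and Bhlhe41, the nuclear receptor Nr1d1, and the output factors Dbp, Tef, Hlf and Nfil3. All 10 symbols were found, once each. The 15 libraries came from polyA RNA of male C57BL/6 mice aged 2 months, with no treatment named in the labels. Of these, 12 were single tubules labelled PTS2, the S2 segment of the proximal tubule, 4 libraries in each of the sets m1, m2 and m3, and 3 were whole kidney. The labels do not say what the letter m stands for, whether libraries of 1 set share an animal, or at what time of day any tissue was taken, so p-values measure the spread between these libraries.

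The clock is a feedback loop that most cells carry. The proteins of Arntl (also called BMAL1) and of Clock or its relative Npas2 pair up and switch on genes that hold an E-box in their promoters, among them the Per and Cry genes, Nr1d1 and Dbp. PER and CRY proteins then block that pair, and NR1D1 (REV-ERB alpha) represses Arntl and Npas2, while ROR proteins activate them. DBP, TEF and HLF, which share a PAR bZIP domain, activate genes through the D-box, and NFIL3 (E4BP4) represses them through the same site. In mouse tissues, the kidney included, transcripts of Arntl and Npas2 are known to be high when those of Dbp and the Per genes are low, and transport and metabolism of the renal tubule vary with the time of day.

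Promoter stretches of clock genes whose transcripts had the widest ranges between sets (Dbp, Npas2, Ciart, Arntl), of the members Per1 and Tef, which hold an E-box, and of Per3, which holds D-boxes, are shown so that these letters can be read beside the levels. The sequences are from RefSeq (GRCm38.p6), which held 12 start sites for 9 of the 10 genes, with none for Per2. They are written 5′ to 3′ on the strand of the gene, cut where an annotated exon (GENCODE M21) begins, with E-boxes and D-boxes in capitals.
Arntl, chr7:113207215-113207464, plus strand: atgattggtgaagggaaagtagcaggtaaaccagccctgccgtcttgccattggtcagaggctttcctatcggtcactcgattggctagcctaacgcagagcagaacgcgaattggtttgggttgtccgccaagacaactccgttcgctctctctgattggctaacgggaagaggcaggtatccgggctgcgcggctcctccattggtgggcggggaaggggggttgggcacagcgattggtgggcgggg
Npas2, chr1:39194022-39194211, plus strand: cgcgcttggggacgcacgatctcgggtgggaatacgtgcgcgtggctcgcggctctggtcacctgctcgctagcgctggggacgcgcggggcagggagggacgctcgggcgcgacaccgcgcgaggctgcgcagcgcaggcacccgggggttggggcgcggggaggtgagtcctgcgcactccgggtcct
Dbp, chr7:45704997-45705087, plus strand: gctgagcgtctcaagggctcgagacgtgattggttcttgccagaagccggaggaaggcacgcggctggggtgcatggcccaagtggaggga
Per1, chr11:69098699-69098947, plus strand: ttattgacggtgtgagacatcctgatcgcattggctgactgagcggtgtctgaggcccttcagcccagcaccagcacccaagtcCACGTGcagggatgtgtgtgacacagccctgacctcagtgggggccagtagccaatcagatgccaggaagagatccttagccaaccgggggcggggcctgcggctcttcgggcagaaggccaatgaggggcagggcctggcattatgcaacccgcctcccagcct
Tef, chr15:81811164-81811413, plus strand: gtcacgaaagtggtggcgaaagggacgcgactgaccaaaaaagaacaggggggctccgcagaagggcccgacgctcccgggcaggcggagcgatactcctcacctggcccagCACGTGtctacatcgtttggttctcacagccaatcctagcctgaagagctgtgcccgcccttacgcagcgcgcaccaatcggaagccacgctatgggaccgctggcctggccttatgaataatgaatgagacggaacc
Ciart, chr3:95882252-95882478, minus strand: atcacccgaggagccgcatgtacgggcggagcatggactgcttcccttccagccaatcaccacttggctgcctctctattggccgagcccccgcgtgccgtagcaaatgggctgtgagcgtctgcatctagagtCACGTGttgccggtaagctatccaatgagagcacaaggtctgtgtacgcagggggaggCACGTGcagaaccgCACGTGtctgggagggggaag
Per3, chr4:151044666-151044915, minus strand: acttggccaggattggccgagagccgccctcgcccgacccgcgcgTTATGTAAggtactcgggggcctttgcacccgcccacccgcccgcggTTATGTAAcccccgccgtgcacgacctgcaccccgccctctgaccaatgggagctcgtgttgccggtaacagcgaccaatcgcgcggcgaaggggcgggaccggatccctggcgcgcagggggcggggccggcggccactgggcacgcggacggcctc
The motifs searched on both strands in the 250 bases before each start were the E-box CACGTG, the D-box (TTATGTAA or TTACGTAA) and the ROR element, by its consensus. No match overlapped another in the stretches shown. An E-box was present for 3 of the 9 members with a promoter, at 166 bases before 1 of the 2 Per1 starts, at 127 and 138 bases before the 2 Tef starts and at 153 bases before the Bhlhe41 start. The Tef window with the E-box at 127 bases is annotated exon in all 250 bases and is not shown. In the Dbp window 159 of 250 bases are exonic. The windows of Npas2, Per1 and Tef lie inside the gene spans given below. The E-box occurs in 6.02% of all 32851 promoters in the table. No member held a D-box (0.931% of promoters) or a ROR element (0.493%) in this window. Of 12 other clock genes with a promoter, 3 held an E-box (Cry1, Ciart and Cipc) and 2 a D-box (Per3 and Timeless). Ciart, a repressor of the loop, held 3 E-boxes, at 116, 58 and 44 bases before its start, and Per3 held 2 D-boxes, at 205 and 158 bases. Ciart and Per3 passed the test over the sets described below, Cipc did not (limma adjusted p = 0.800), and Cry1 and Timeless averaged under 1 TPM in the tubules and were not tested there. Of the members with an E-box, Per1 and Tef did not pass (limma adjusted p of 0.559 and 0.129), and Bhlhe41 was not tested. The members that passed, Dbp, Arntl, Npas2 and Nfil3, held none of these motifs in this window. A motif match is a description of the letters, and the absence of one says only that these letters are not in this window.

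The tissue labels were checked first. Markers of the proximal tubule (Lrp2, Cubn, Slc34a1, Slc27a2 and Hnf4a) summed to between 11112 and 16406 TPM (a transcript level scaled to gene length and to the total of the library) in PTS2 and between 9062 and 10044 TPM in whole kidney. Of these markers only Slc27a2 was higher in every tubule, at 6904 to 11041 TPM against 4363 to 5131 TPM in the kidneys. Slc34a1 overlapped, and its mean was lower in the tubules, at 3351 TPM against 4544 TPM. Lrp2, Cubn and Hnf4a overlapped too, with tubule means of 99.1, 27.1 and 129 TPM against 101, 27.8 and 143 TPM. S1 markers summed to at most 79.9 TPM in PTS2 and at least 818 TPM in whole kidney. S2 markers (Slc22a6 and Slc22a8) summed to 368 to 1149 TPM in PTS2, with a median of 658 TPM, and to 719 to 781 TPM in whole kidney, so the sums overlapped. The 2 genes differed. Slc22a6 overlapped, at 339 to 988 TPM in PTS2 and 435 to 512 TPM in whole kidney. Slc22a8 was lower in every tubule, at 24.7 to 161 TPM against 261 to 284 TPM, so neither gene was higher in all tubules. S3 markers (Slc7a13, Slc22a7 and Slc5a1) had a higher sum in PTS2, at 2054 to 3772 TPM against 988 to 1254 TPM. Slc7a13 and Slc22a7 were higher in every tubule. Slc5a1 overlapped, at 43.15 to 72.54 TPM in PTS2 and 44.82 to 53.1 TPM in whole kidney. In whole kidney the proximal tubule is mixed with other cell types, and there fewer cells of a type and less RNA per cell cannot be told apart. Replicate 3 of set m3 stood apart, with 1441 TPM of thick ascending limb markers, where the other 11 tubules had at most 55.8 TPM. Sequencing depth cannot be read from TPM, and no counting error is given.

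Dbp, the output factor with the widest swing, separated the 3 sets of tubules completely. The gene lies at chr7:45705088-45710203 on the plus strand (GENCODE M21, GRCm38, as for the positions that follow). Its level was 34.88, 33.59, 37.46 and 34.78 TPM in the 4 libraries of m1. In m2 it was 17.15, 16.38, 19.83 and 21.76 TPM. In m3 it was 76.15, 71.88, 91.30 and 100.76 TPM. All m2 libraries were therefore low, all m1 libraries intermediate and all m3 libraries high, with no overlap between any pair of sets. The mean of m3 was 4.53 times that of m2 and 2.42 times that of m1. On the log2(TPM + 1) scale, which understates changes of low genes, the difference between m3 and m2 was 2.12 ± 0.12 (SE, limma adjusted p = 5.85e-07). That between m3 and m1 was 1.24 ± 0.12 (adjusted p = 0.000104) and that between m2 and m1 was -0.88 ± 0.12 (adjusted p = 0.00328). Of the exonic bases of Dbp, 539 of 2993 are shared with Sphk2 on the other strand, and the library protocol is not stated to keep the strand. Sphk2 stayed between 15.9 and 23.4 TPM in the 12 tubules.

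**Figure D1:**
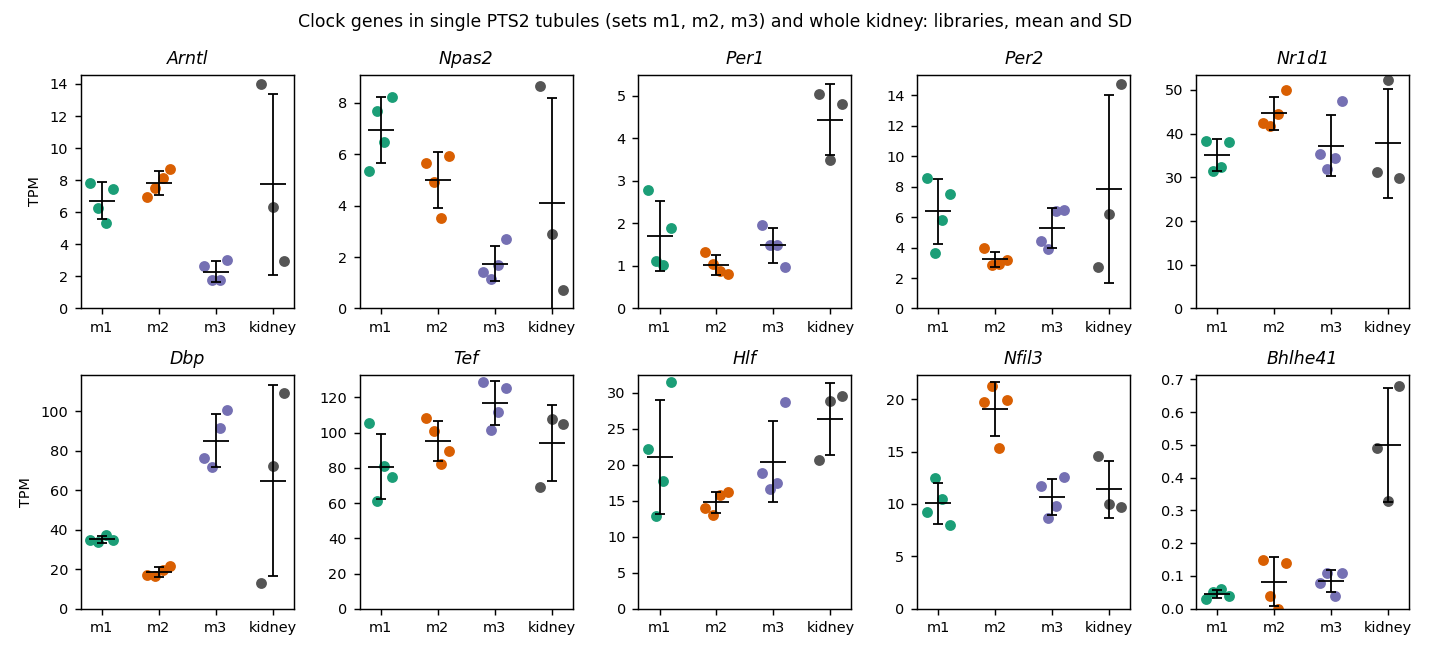
Levels of the 10 clock genes in TPM (vertical axes from 0, one scale per gene) in each library of PTS2 sets m1, m2 and m3 (4 libraries each) and of whole kidney (3 libraries); points are libraries, and bars show the mean and SD. Dbp is highest in m3, Arntl and Npas2 are lowest there, Nfil3 is highest in m2, and the 3 kidneys lie far apart for Dbp, Arntl, Npas2 and Per2.

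Between m3 and each other set, the activators ran the other way. Arntl is at chr7:113207465-113314126 on the plus strand and Npas2 at chr1:39193731-39363236 on the plus strand. The 4 m1 libraries had 7.85, 6.24, 5.33 and 7.42 TPM of Arntl. The m2 libraries had 6.94, 7.50, 8.14 and 8.70 TPM, and those of m3 had 2.63, 1.75, 1.75 and 3.02 TPM. The m3 libraries lay below all others, while those of m1 and m2 overlapped. The m3 mean was 0.341 times that of m1 and 0.293 times that of m2. Tested with limma, m3 minus m1 was -1.24 ± 0.16 on the log2 scale (SE; adjusted p = 0.00121) and m3 minus m2 was -1.44 ± 0.16 (adjusted p = 0.000285). Between m2 and m1 it was 0.20, with a 95% interval from -0.15 to 0.55.

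Npas2, which can stand in for Clock beside Arntl, was at 5.34, 7.68, 6.46 and 8.23 TPM in m1. The m2 libraries had 5.64, 4.92, 3.51 and 5.92 TPM and the m3 libraries 1.41, 1.14, 1.70 and 2.69 TPM. Again each m3 library was below each library of the other sets, and m1 and m2 overlapped. By limma, m3 minus m1 was -1.55 ± 0.20 on the log2 scale (SE; adjusted p = 0.00111), and m3 minus m2 was -1.14 ± 0.20 (adjusted p = 0.00935).

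Nfil3, the repressor at D-boxes, had another pattern, with m2 apart from both other sets. It lies at chr13:52967209-52981073 on the minus strand. It was at 19.71, 21.28, 15.38 and 19.96 TPM in m2, against 9.26, 12.50, 10.50 and 7.97 TPM in m1 and 11.69, 8.66, 9.82 and 12.53 TPM in m3. The lowest m2 library was thus above the highest library of m1 and of m3. The log2 difference was 0.87 ± 0.15 between m2 and m1 (SE, limma adjusted p = 0.0203) and -0.79 ± 0.15 between m3 and m2 (adjusted p = 0.0174). Both calls were close to the threshold. The first was lost without m1 replicate 3 or 4 or without m2 replicate 1, 2 or 4, with an adjusted p of up to 0.0968. The second was lost without m2 replicate 1, 2 or 4 or without m3 replicate 2 or 3, at up to 0.0715. The test over all 3 sets stayed below 0.05 whichever library was left out, and without m3 replicate 3 its adjusted p was 0.0229.

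Nr1d1, Tef and Hlf, which share the loop with Dbp, did not pass the test over the 3 sets. Their set means had log2 ranges of 0.34, 0.55 and 0.42, beside 2.12 for Dbp. Nr1d1 is at chr11:98767932-98775333 (minus strand), Tef at chr15:81802421-81826863 (plus strand) and Hlf at chr11:90336536-90390895 (minus strand). The mean of Nr1d1 over 4 libraries was 35.1 ± 3.65 TPM (SD) for m1, 44.7 ± 3.72 TPM for m2 and 37.3 ± 6.89 TPM for m3. Its m2 libraries, at 41.70 to 49.98 TPM, were all above those of m1, at 31.55 to 38.40 TPM, but the log2 difference of 0.34 did not pass (limma adjusted p = 0.325). Over the 3 sets its adjusted p was 0.257. Where Dbp of m3 was 4.53 times its m2 mean, Nr1d1 of m3 was 0.834 times its own. Of the 3077 exonic bases of Nr1d1, 263 are shared with Thra on the other strand, and Thra was between 5.58 and 12.3 TPM in the tubules.

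Tef was the most abundant of the 10 genes in the tubules on the length-scaled TPM, with a lowest, median and highest library of 61.3, 101 and 129 TPM. The means over 4 libraries were 80.7 ± 18.6 TPM (SD) for m1, 95.3 ± 11.6 TPM for m2 and 117 ± 12.6 TPM for m3, and the sets overlapped. The log2 difference between m3 and m1 was 0.55, with a 95% interval from 0.23 to 0.86 (limma adjusted p = 0.0630). It passed without m1 replicate 1, at 0.00932, at 0.0459, where only genes averaging 10 TPM or more were kept, and at 0.0334 with median-of-ratios rescaling. Hlf averaged 21.1 ± 7.96 TPM (m1), 14.8 ± 1.48 TPM (m2) and 20.4 ± 5.61 TPM (m3), and its adjusted p over the sets was 0.477. The m3 libraries of Hlf, at 16.69 to 28.74 TPM, were all above those of m2, at 13.06 to 16.21 TPM. For 9.6% of all genes these 2 sets did not overlap. The log2 difference of Hlf between them was 0.41 (limma adjusted p = 0.583), and its m1 libraries overlapped both sets. Its highest libraries were replicate 4 of m1, at 31.54 TPM, and replicate 4 of m3, at 28.74 TPM. No member passed the test across the replicate numbers 1 to 4, where 2.71% of all genes did. Of the 9 members tested, 4 (Hlf, Nr1d1, Dbp and Tef) had an unadjusted p under 0.05. The share of all genes at that unadjusted threshold was not counted, so these 4 are not a result about clock genes. For Hlf the limma adjusted p across the numbers was 0.112.

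The Period repressors were low in every tubule. Per1 lies at chr11:69095217-69109960 (plus strand), Per2 at chr1:91415982-91459324 (minus strand) and Bhlhe41, a further repressor, at chr6:145858243-145865558 (minus strand). The m1 libraries had 8.54, 3.64, 5.79 and 7.53 TPM of Per2. Those of m2 had 3.97, 2.88, 2.93 and 3.16 TPM, and those of m3 had 4.42, 3.93, 6.37 and 6.44 TPM. The highest m2 library was above the lowest of m1 and of m3, so all sets overlapped. Its log2 difference between m2 and m1 was -0.76, with a 95% interval from -1.23 to -0.28, which did not pass over all genes (limma adjusted p = 0.195). Without m1 replicate 2, its lowest m1 library, the adjusted p was 0.0470. Per1 was between 0.80 and 2.79 TPM in the 12 tubules, with an adjusted p of 0.559 over the sets. Bhlhe41, which competes for E-boxes, was at or near 0, with a highest tubule of 0.15 TPM, and was not tested because its mean was under 1 TPM.

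Of the 10 clock genes, 9 averaged 1 TPM or more and entered the fit; Bhlhe41 did not. Over the 3 sets 4 of these 9 passed (Dbp, Arntl, Npas2 and Nfil3), and 3.02% of all 11300 genes tested did. In single contrasts, 2 of the 9 passed for m2 against m1, 1 higher and 1 lower, where 0.54% of all genes passed, 0.301% as higher and 0.239% as lower. For m3 against m1 there were 3, 1 higher and 2 lower, where 3.17% of all genes passed, 2.23% as higher and 0.938% as lower. For m3 against m2 there were 4, 1 higher and 3 lower, where 1.97% of all genes passed, 1.17% as higher and 0.805% as lower. The median log2 difference of the 9 members was -0.39, -0.0053 and 0.29 in these contrasts, beside 0.04, 0.09 and 0.04 for all genes. Libraries did not overlap for 3, 3 and 5 members, where 5.3%, 9.04% and 9.6% of all genes did not. Leaving out m3 replicate 3, the library with thick ascending limb markers, left 4, 2, 3 and 3 members called over the sets and in these contrasts. The direction and the call of Dbp, Arntl and Npas2 between m3 and each other set were kept with median-of-ratios rescaling and with quantile normalization. For all genes, scaling moved the split of m3 against m1 from 252 higher and 106 lower to 209 and 174 with the first and 208 and 186 with the second. The members were chosen with such results known, so these counts describe them and are no independent evidence.

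**Figure D2:**
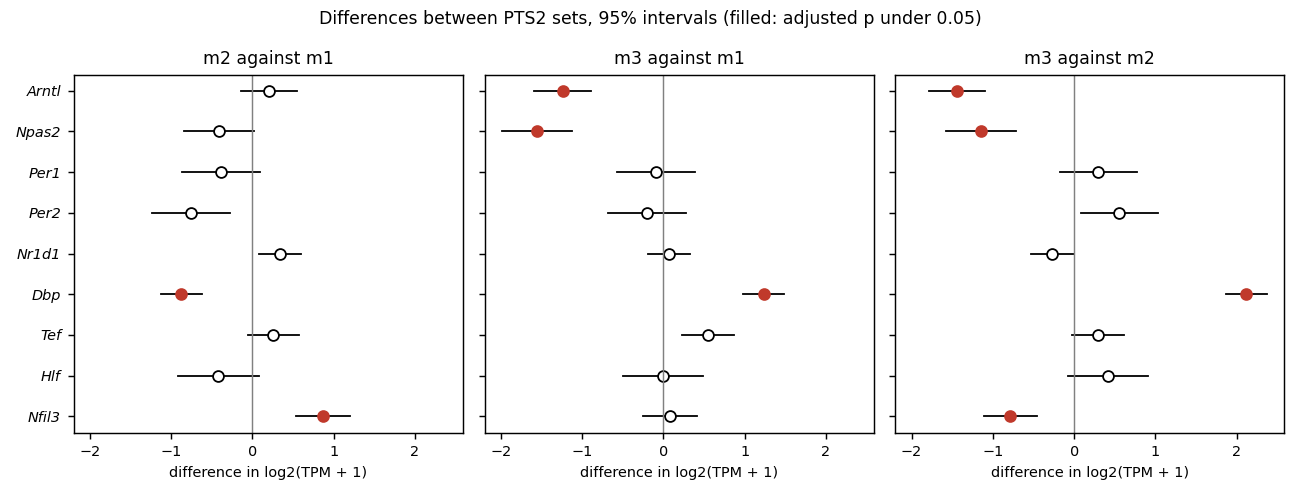
Differences in log2(TPM + 1) between PTS2 sets for the 9 clock genes tested (4 libraries per set), with 95% intervals from limma as lines; filled points had an adjusted p under 0.05 over all genes tested. Dbp lies above 0 and Arntl and Npas2 below 0 in both contrasts of m3, and Nfil3 differs where m2 is compared.

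A ratio of 2 genes within 1 library does not depend on a factor that scales the whole library. Quantile normalization is not such a factor and can change it. Under it, the log2 difference between PTS2 and whole kidney went from -0.33 to 0.35 for Arntl and from -0.30 to -0.05 for Dbp. The ratios given are of the deposited TPM. The level of Dbp was 4.44 to 7.03 times that of Arntl in m1, 2.18 to 2.5 times in m2 and 29.0 to 52.2 times in m3. The ratio thus placed the 12 tubules in 3 bands that did not overlap. The ratio of Dbp to Nfil3, an activator and a repressor at the same site, gave bands of 2.69 to 4.36 in m1, 0.770 to 1.29 in m2 and 6.51 to 9.30 in m3. These ratios combine genes chosen for their swing and are given without a test.

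In log2(TPM + 1), all members tested but Nfil3 spanned more among the 3 whole kidneys than among the tubule set means. The median over all genes was also larger for kidneys, at 0.24 against 0.23. Spans over kidneys were widest for Dbp, Npas2, Per2 and Arntl. Each kidney is a single library, set here beside means. Over single tubules Arntl spanned 4.97-fold, more than its 4.69-fold over kidneys. Dbp, Npas2 and Per2 spanned less over single tubules (6.15, 7.22 and 2.97-fold against 8.36, 11.9 and 5.45-fold). Dbp was at 13.07 TPM in kidney 1, 72.49 TPM in kidney 2 and 109.22 TPM in kidney 3, an 8.36-fold span. Arntl was at 13.97, 6.30 and 2.98 TPM and Npas2 at 8.66, 2.89 and 0.73 TPM in the same order. Kidney 1 was thus high in both activators and low in Dbp, and kidney 3 the reverse. Per2 was at 2.70, 6.18 and 14.71 TPM, so that it went with Dbp. The ratio of Dbp to Arntl was 0.936, 11.5 and 36.7 in kidneys 1, 2 and 3. Kidney 1 lay below the lowest tubule, kidney 2 between the bands of m1 and m3, and kidney 3 within the band of m3.

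**Figure D3:**
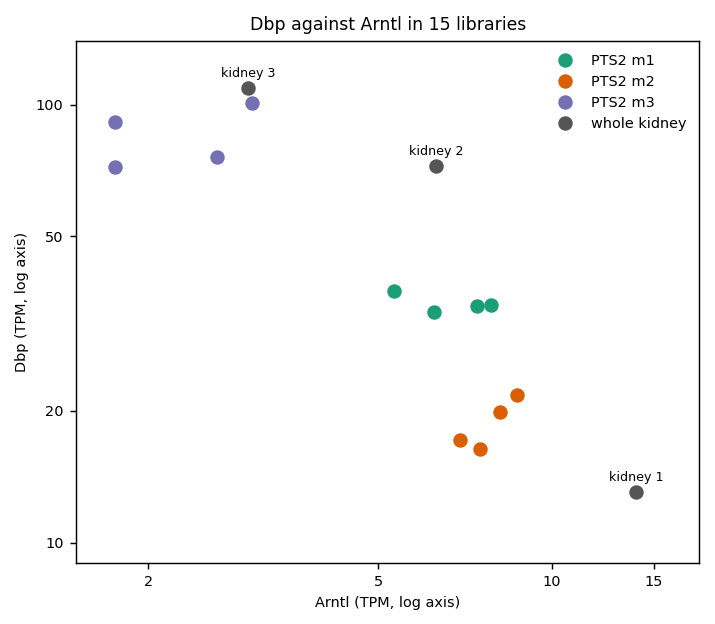
Level of Dbp against that of Arntl in TPM (both axes logarithmic) in 12 PTS2 tubules, coloured by set, and 3 whole kidneys, numbered as in the labels; each point is 1 library. The tubules form 3 groups from m2 (Dbp 16.38 to 21.76 TPM) through m1 to m3 (71.88 to 100.76 TPM), and the kidneys run from 13.07 to 109.22 TPM of Dbp while Arntl falls from 13.97 to 2.98 TPM.

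The span over the 3 kidneys was compared with that of other genes as a description. The range of log2(TPM + 1) over the kidneys was 2.97 for Dbp, 2.48 for Npas2, 2.09 for Per2 and 1.91 for Arntl, and the median of 12039 genes was 0.24. These 4 members ranked 68, 84, 102 and 107 among all genes tested. They were at or above the 95th percentile of 0.81, as 5% of genes are by construction. Nr1d1, with a range of 0.79, was just below it, and Per1, Hlf, Nfil3 and Tef had ranges of 0.43 to 0.64. Over the means of the 3 tubule sets the 4 members at or above the 95th percentile (0.80) were Dbp, Npas2, Arntl and Nfil3, with ranges of 2.12, 1.55, 1.44 and 0.87. Per2 had a wide span over kidneys and a narrower one, of 0.76, over sets, and Nfil3 the opposite. This measure was chosen after seeing the data. With 1 library per kidney, differences between animals and between library preparations cannot be told apart.

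**Figure D4:**
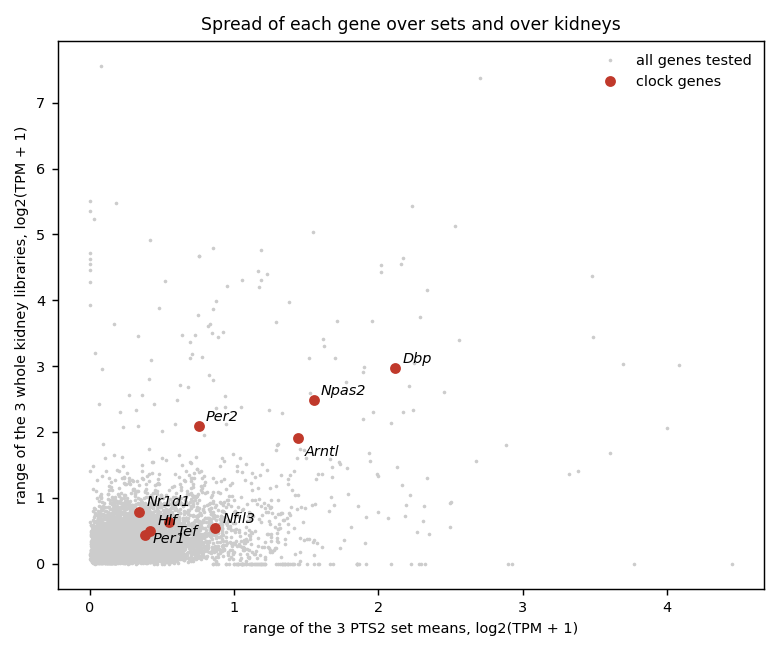
For each of 12039 genes (grey points), the range of log2(TPM + 1) over the 3 whole kidney libraries (vertical) against the range of the means of the 3 PTS2 sets (horizontal); the 9 clock genes tested are red. Dbp, Npas2 and Arntl lie far out on both axes, with ranges of 1.91 to 2.97 over kidneys and 1.44 to 2.12 over sets.

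With such a span among the kidneys, the comparison of PTS2 with whole kidney could resolve little for the swinging genes. Dbp was lowest at 16.38, with a median of 34.8 and a highest of 100.76 TPM in PTS2, within the range of the kidneys, and its log2 difference was -0.30 with a 95% interval from -1.53 to 0.92. For Arntl it was -0.33 (interval -1.21 to 0.54), for Npas2 0.31 (-0.68 to 1.31) and for Per2 -0.39 (-1.12 to 0.34). The sign of each of these 4 differences turned when 1 of the kidneys was left out, kidney 1 for Arntl and kidney 3 for Npas2, Per2 and Dbp. Without kidney 1, Per2 passed, at -0.90 on the log2 scale (limma adjusted p = 0.0437). Under quantile normalization the sign also turned for Arntl and Per2. Nr1d1 and Tef were closer to even, at 0.08 (-0.26 to 0.42) and 0.05 (-0.34 to 0.45), and the sign turned without kidney 1 for both, and without kidney 3 for Nr1d1.

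Per1 was lower in the tubules than in every kidney. It was at 5.03, 3.48 and 4.79 TPM in whole kidney, and its highest tubule had 2.79 TPM. The log2 difference was -1.20 ± 0.20 (SE, limma adjusted p = 0.00011), and the mean of PTS2 was 0.315 times that of whole kidney. Scaling bears on this value, because the median log2 difference of all genes was -0.27 here, 0.00 with median-of-ratios rescaling and 0.16 with quantile normalization. The Per1 difference was -0.98 with the first (adjusted p = 0.000556) and -0.41 with the second (adjusted p = 0.0810), which ends the call. Per1 was the 1 member of 9 that passed, while 51.2% of all genes passed, with 9.68% higher and 41.5% lower in PTS2, so this count is not a result about clock genes. Libraries of PTS2 and kidney did not overlap for 1 of the 9 members and for 37.8% of all genes. The median log2 difference of the members was -0.30. For all genes the split was 1165 higher and 4996 lower, 2826 and 2751 with median-of-ratios rescaling, and 4164 and 2273 with quantile normalization.

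Bhlhe41 was at 0.49, 0.33 and 0.68 TPM in whole kidney, above every tubule. Its mean in PTS2 was 0.0708 ± 0.0470 TPM (SD, n = 12). In a fit with no filter on low values, its log2 difference was -0.48 ± 0.06 (SE, limma adjusted p = 6.11e-06), on a scale that compresses values this low. The Gm43909 gene on the other strand, with which it shares 1280 of 6720 exonic bases, was listed at 0 in every tubule. Hlf was at 20.59, 28.90 and 29.53 TPM in whole kidney, against a median of 17.1 TPM in PTS2. Its log2 difference was -0.50 (interval -0.98 to -0.02), which did not pass over all genes (limma adjusted p = 0.0742). It passed without m1 replicate 4 or m3 replicate 4, the highest tubules, at an adjusted p of down to 0.0204. The Hlf difference shrank to -0.22 with median-of-ratios rescaling (limma adjusted p = 0.421) and to -0.15 with quantile normalization (adjusted p = 0.569). Nfil3 was at 14.57, 9.96 and 9.73 TPM in whole kidney, within the range of the tubules, and its log2 difference was 0.15 (-0.37 to 0.68). With quantile normalization it was 0.73 and passed (adjusted p = 0.0188).

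Other genes of the loop were read from a list of 17, of which 14 entered the fit of the sets. Over the 3 sets 3 of the 14 passed, Ciart and Per3 among them, where 3.02% of all genes did. Ciart, with 3 E-boxes in the promoter shown above, averaged 5.01 ± 1.70 TPM (SD of 4 libraries) for m1, 4.10 ± 1.68 TPM for m2 and 13.3 ± 2.56 TPM for m3 (limma adjusted p = 0.00662 over the sets). Its m3 libraries were all above those of m1 and m2, as for Dbp, and in kidneys 1, 2 and 3 it was at 2.26, 5.75 and 18.58 TPM. Per3, with 2 D-boxes in the stretch shown, had its highest mean in m3 and an adjusted p of 0.0490. The call of Per3 was lost when each of 10 of the 12 libraries was left out in turn, at up to 0.148. Clock, the usual partner of Arntl, was at 4.75 to 7.66 TPM in the tubules, with an adjusted p of 0.549. In m3 against m1, 2 of the 14 (Ciart and Per3) passed as higher and 0 as lower, where 2.23% and 0.938% of all genes did. The median log2 difference was 0.19 there, beside 0.09 for all genes. In m3 against m2, Ciart was the 1 that passed, as higher, where 1.17% of all genes did. In m2 against m1, limma called 0 of the 14, where 0.54% of all genes passed. There, 3 had an unadjusted p under 0.05, a threshold at which all genes were not counted.

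Against whole kidney, 4 of 16 other clock genes passed, each lower in PTS2: Clock, Cry1, Timeless and Csnk1e. Over all genes 51.2% passed and 41.5% passed as lower, so this count is not a result about the list. Cry1 and Timeless averaged under 1 TPM in the tubules and met the filter through their kidney values. The filter thus favoured a lower call for both. With no filter on low values they still passed as lower (limma adjusted p of 0.0113 and 0.00773). With quantile normalization only Csnk1e of the 4 passed, and Btrc, Cipc and Per3 passed as higher. Csnk1e, a kinase of PER proteins, was at 10.87, 9.32 and 10.01 TPM in the kidneys and at most 2.26 TPM in the tubules, and its log2 difference was -2.46 ± 0.22 (SE, limma adjusted p = 9.09e-08). Clock was at 13.52, 11.99 and 10.26 TPM in the kidneys, also above every tubule, with a log2 difference of -0.86. Arntl and Npas2, its partner and its relative, overlapped between the tubules and the kidneys. Markers of other cell types moved with this comparison. Those of the distal convoluted tubule summed to at most 0.55 TPM in PTS2 and at least 202 TPM in whole kidney, and those of endothelium to at most 32.7 and at least 118 TPM. The part of these cells in the differences was not tested.

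**Figure D5:**
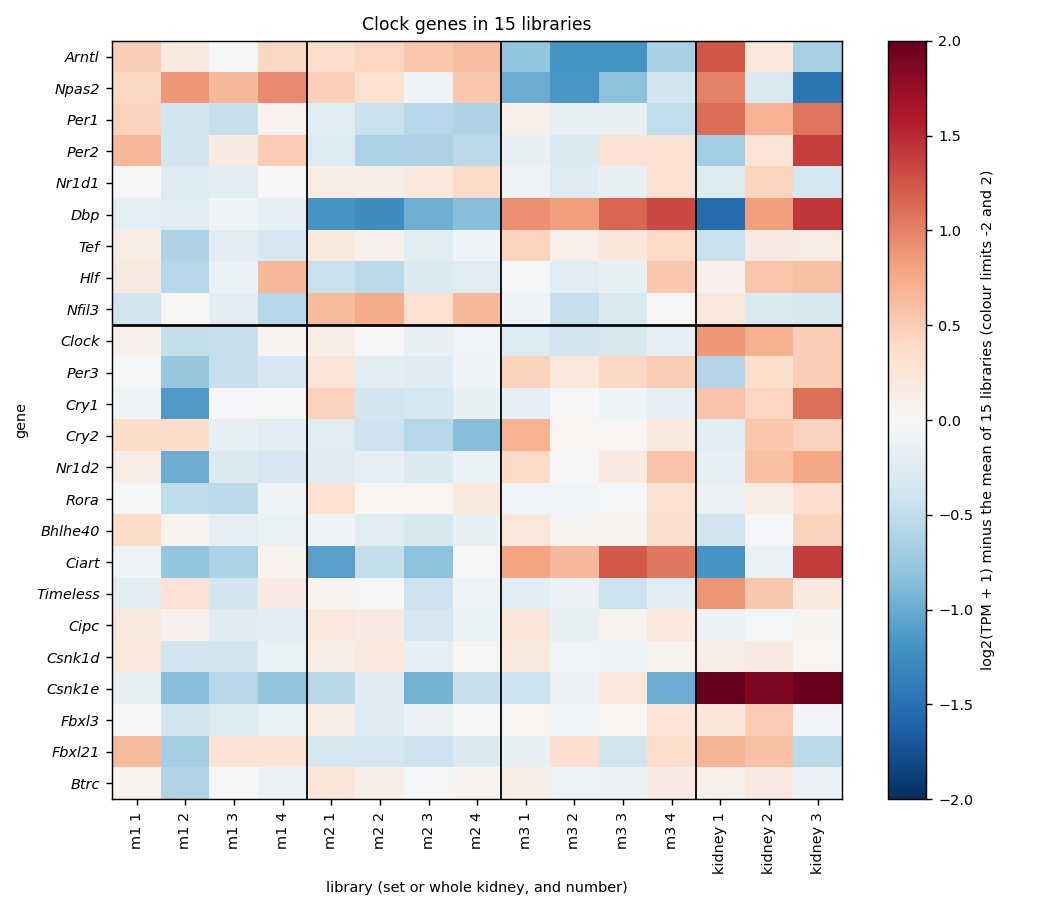
Colour gives log2(TPM + 1) of each clock gene minus its mean over the 15 libraries (red above, blue below, limits -2 and 2); columns are libraries, rows above the line are the 9 members tested and rows below are other clock genes. In m3 the rows of Arntl and Npas2 are blue and those of Dbp and Ciart red, and the first and last kidney show opposite colours in these rows.

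Genes reported elsewhere as outputs of the clock were read from a list of 12, of which 11 were tested. Over the sets 2 of the 11 passed, Alas1 and Tspan4, where 3.02% of all genes did. Alas1, which makes the first enzyme of heme synthesis, averaged 335 ± 12.4 TPM (SD of 4 libraries) for m1, 267 ± 28.3 TPM for m2 and 593 ± 73.4 TPM for m3 (limma adjusted p = 3.77e-05), the same order of sets as Dbp. In kidneys 1, 2 and 3 Alas1 was at 259.94, 509.96 and 406.37 TPM, so that the order of kidneys 2 and 3 was not that of Dbp. Tspan4 averaged 94.7 ± 8.84, 83.2 ± 5.49 and 109 ± 3.52 TPM in the same order (adjusted p = 0.0419). Its call was lost with median-of-ratios rescaling (0.0900), and 8 of the 12 left-out libraries ended its call, at up to 0.135. Usp2, Por, Wee1 and Nampt had their highest set means in m3, at 1.27, 1.39, 1.45 and 1.22 times those of m1, and did not pass (adjusted p of 0.160, 0.105, 0.201 and 0.211). Slc9a3, the sodium-proton exchanger of the brush border, passed across the replicate numbers (limma adjusted p = 0.0170) and had an adjusted p of 0.860 over the sets. The median log2 difference of the 11 was 0.36 for m3 against m1 and 0.35 for m3 against m2, beside 0.09 and 0.04 for all genes. In the first, 1 of the 11 passed as higher, where 2.23% of all genes did. In the second 2 did, where 1.17% of all genes did.

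The genes whose pattern over the 12 tubules was nearest to that of Dbp were found among 11300 genes by the root-mean-square difference of log2(TPM + 1), each gene centred on its own mean. Among the nearest 5 outside the members were Rgs3, Klhl6, Gadd45g and Tgm1, with differences of 0.29, 0.32, 0.34 and 0.36. Gadd45g, which responds to stress and growth signals, averaged 33.2 ± 3.85 TPM (SD of 4 libraries) for m1, 17.995 ± 2.34 TPM for m2 and 55.8 ± 7.29 TPM for m3. In kidneys 1, 2 and 3 Gadd45g was at 49.16, 54.74 and 128.01 TPM, in the order of Dbp, and Klhl6 was at 5.03, 4.24 and 3.64 TPM, in the reverse order. Nearest to Arntl were Angptl4, Ndrg1, Ces2b, Fam213b and Tmem252, with differences of 0.23, 0.29, 0.29, 0.32 and 0.33. Angptl4, an inhibitor of lipoprotein lipase, averaged 133 ± 23.0 TPM for m1, 182 ± 7.38 TPM for m2 and 54.4 ± 4.03 TPM for m3. In the kidneys it was at 75.61, 25.41 and 40.33 TPM, so kidney 2, not kidney 3, was lowest. With a pseudocount of 0.1, 3 of the 5 genes were kept for Dbp and 3 for Arntl, and 3 to 5 were kept when 1 library was left out.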

How the data were processed

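Gene expression was measured by RNA-Seq of polyA RNA in 12 single PTS2 tubules and 3 whole kidneys. Per the labels' protocols, cDNA was made with SMART-Seq V4. The submitters' processing notes name STAR 2.5.1b, RSEM 1.2.31 and GRCm38.p5, with no settings. The authors deposited 1 table of TPM values for 47069 genes, and each column sums to between 999999 and 1000001. The authors' 4 columns of means and SE, in TPM and as a score, were not used. Gene names are those of the file. Positions are from GENCODE M21 (GRCm38) and promoter sequences from RefSeq (GRCm38.p6).

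Libraries were grouped by the description labels. The tests used limma 3.58.1 (R 4.3.3, mean-variance trend) on log2(TPM + 1), for genes averaging 1 TPM or more in the fit, with Benjamini-Hochberg adjustment over all of them and a threshold of 0.05. PTS2 against whole kidney used 12039 genes and the set as a correlated block (correlation 0.0669). The sets, and the replicate numbers beside the sets, used 11300 genes and 12 libraries. Fits were tested on simulated data. Python 3.11.15, numpy 2.4.6, pandas 2.3.3 and matplotlib 3.10.9 did the rest. Named genes were the 10 members, genes of 4 further lists (other clock, clock output, glucocorticoid-responsive and immediate early genes) with an adjusted p under 0.05 over the sets (up to 6 per list), and the 5 genes most like Dbp and the 5 most like Arntl. Other genes of these lists that the text names were chosen after their values were seen. A few genes that meet this rule are not reported here. Members and lists were chosen with earlier results of these data known. Alternatives were median-of-ratios rescaling, a pseudocount of 0.1, genes averaging 10 TPM or more, no filter, quantile normalization, a replicate block, and leaving out each library; for PTS2 against whole kidney, also set means in place of libraries, and a fit that ignores the correlation. The spread over kidneys and the alternatives for it and for likeness were chosen after seeing the data.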

Additional observations from a re-analysis of the deposited data

Results flagged for a closer look

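In each set of 4 libraries, a named gene's highest or lowest value was checked for a wide gap to the next one, relative to the whole range. Of 81 such sets, 4 stood out, where about 4.05 would by chance at 1 in 20. No member of the clock group was among them. Alas1 was at 703 TPM (703.08) in m3 replicate 4, and the next library was at 561 TPM. Ndrg1 was at 1503 TPM (1502.8) in m2 replicate 4, with 1251 TPM next, and at 1012 TPM (1011.53) in m3 replicate 4, with 689 TPM next. Fam213b was at 8.31 TPM in m3 replicate 2, with 7.32 TPM next.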

How the results depend on the processing

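Directions and calls of Dbp, Arntl and Npas2 between m3 and each other set held under every alternative that could test them, Arntl and Npas2 dropping out at a mean of at least 10 TPM. At that filter only Nr1d1, Dbp, Tef, Hlf and Nfil3 were tested. Of these, 2 passed over the sets, where 306 of 6446 genes did, and 2 for m3 against m2, where 181 did. Against whole kidney 0 members passed, where 3113 of 6737 genes did. With no filter, 9399 of 30969 genes and 2 members passed against whole kidney. Of 30134 genes, 196 then passed over the sets, 178 for m3 against m1 and 111 for m3 against m2. For m2 against m1, 41 genes passed, 1 of them a member. For replicate numbers limma then called 0 genes. For m2 against m1, 105 genes passed with median-of-ratios rescaling and 107 with quantile normalization.

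With the replicate number as a replicate block, 888 genes passed over the sets, 307 for m2 against m1, 838 for m3 against m1 and 416 for m3 against m2. Against whole kidney 2 members then passed, Hlf being added (adjusted p = 0.0138), and Tef passed over the sets (0.0291) and for m3 against m1 (0.0137). Same-numbered tubules of different sets had correlated deviations of 0.0209 to 0.281 over 12 pairs, 7 of them over 0.1, with a mean of 0.138. Of the 12 tubules, 9 correlated best with their own number. The 36 pairs of different numbers had a mean of -0.0463. Deviations were centred within each set, so that mean nearly follows from the first and is no separate observation. The same-number values are a hint from the data that numbers share something. Because the labels do not say so and not every pair was over 0.1, the fit without the block was kept for the report.

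Leaving out 1 library gave 4761 to 6712 genes and 1 to 2 members against whole kidney. It gave 197 to 563 genes and 4 to 5 members over the sets, 37 to 135 genes and 1 to 3 members for m2 against m1, 160 to 771 genes and 3 to 4 members for m3 against m1, 119 to 313 genes and 3 to 4 members for m3 against m2, and 75 to 507 genes and 0 members for replicate numbers. The highest of these gene counts were without m1 replicate 1 (563 over the sets, 135 for m2 against m1 and 771 for m3 against m1). The lowest were without m3 replicate 1 (197 over the sets, 119 for m3 against m2), m2 replicate 2 (37 for m2 against m1, 119 for m3 against m2) and m3 replicate 3 (160 for m3 against m1). For replicate numbers they were without m1 replicate 4 (75) and m2 replicate 2 (507). Against whole kidney, 2 members passed without m1 replicate 4, m3 replicate 4 or kidney 1.

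Signs turned for differences that did not pass with all libraries. Against whole kidney, quantile normalization gave 0.35 for Arntl and 0.30 for Per2. Leaving out 1 library gave -0.80 to 0.16 for Arntl, -0.30 to 0.94 for Npas2, -0.90 to 0.15 for Per2, -0.066 to 0.33 for Nr1d1, -1.20 to 0.29 for Dbp and -0.15 to 0.16 for Tef. Each sign turned without 1 of the kidneys, and that of Nr1d1 without kidney 1 and without kidney 3. For m3 against m1, Nr1d1 was -0.013 with median-of-ratios rescaling and -0.015 with quantile normalization, and Nfil3 was -0.032 with the latter. Leaving out 1 library there gave -0.22 to 0.090 for Per1, -0.045 to 0.14 for Nr1d1, -0.21 to 0.20 for Hlf and -0.013 to 0.18 for Nfil3. The cause was not tested. The number of members at or above the 95th percentile of range over kidneys was 4 to 6, the 6 without kidney 3. TPM hold no depth, so no alternative based on counts was run.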

Other observations

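Glucocorticoid-responsive genes, which Per1 is also known to be, were read from a list of 6 genes, of which 5 were tested and 2 passed over the sets, where 3.02% of all genes did. Sgk1, a kinase that regulates sodium transport, averaged 178 ± 39.7 TPM (SD of 4 libraries) for m1, 93.1 ± 11.8 TPM for m2 and 16.7 ± 2.47 TPM for m3 (limma adjusted p = 2.68e-07). Tsc22d3, which encodes the protein GILZ, averaged 73.9 ± 6.35 TPM for m1, 87.5 ± 8.51 TPM for m2 and 50.0025 ± 5.26 TPM for m3 (limma adjusted p = 0.00121). Both were lowest in m3, as were Arntl and Npas2. Klf9 had its highest mean in m3, at 60.9 TPM against 48.1 TPM for m1 and 49.7 TPM for m2, and did not pass (limma adjusted p = 0.270), nor did Fkbp5 (0.687) or Per1 (0.559). In kidneys 1, 2 and 3 Sgk1 was at 176.19, 68.22 and 81.34 TPM. Against whole kidney 4 of the 5 were lower in PTS2 (3 with median-of-ratios rescaling, 4 with quantile normalization), with a median log2 difference of -0.61 beside -0.27 for all genes, of which 41.5% passed as lower (2751 of 11919 and 2273 of 12039 under these scalings).

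Immediate early genes, which respond within minutes to stimuli, were low in the tubules. Of 8 genes, 3 were tested over the sets (Ier2, Jun and Junb), and limma called 0 of them, with 0 at an unadjusted p under 0.05. Against whole kidney 4 were tested and 4 were lower in PTS2, with a median log2 difference of -1.48, where 41.5% of all genes passed as lower. The count and the median include Egr1, whose tubule mean was only 0.148 TPM. Egr1 met the filter of 1 TPM through its high kidney values, so the filter favoured a lower call for it. Ier2, Jun and Junb differed by -1.04, -2.36 and -1.04. With median-of-ratios rescaling 3 of 3 were lower, and with quantile normalization 2 of 4 were, Egr1 among them. Egr1 was at 1.29, 1.56 and 12.49 TPM in kidneys 1, 2 and 3, and Jun at 14.38, 18.39 and 36.93 TPM. Kidney 3, which had the highest Egr1 and Jun, was also the kidney with the highest Per2, Dbp and Ciart, and the part of 1 in the other was not tested.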
